A study of Pleurotus ostreatus with 32 samples.

Results

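Gene expression was compared between the lamellae and the skin of mature fruiting bodies of the oyster mushroom Pleurotus ostreatus, over all genes. The comparison used 6 of the 32 RNA sequencing libraries of the series, 3 of lamellae and 3 of skin, chosen by their labels. All came from the dikaryotic strain N001, in which each cell holds a pair of unlike nuclei, grown in bagged spawn culture under a daily light period. Each library was made from tissue of 3 to 8 pooled fruiting bodies, so the spread between libraries is a spread between pools. The labels call the tissues fruiting body lamellae and fruiting body skin and do not say from which face the skin was taken; the lamellae are set here against it as the lower against the upper surface of the cap. The other 26 libraries cover mature cap, mature stipe, dedifferentiated cap, vegetative mycelium, stage 1 primordia, and cap and stipe of stage 3 primordia and of young fruiting bodies, with 3 libraries a group except 2 of the dedifferentiated cap.

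Lamellae are the gills on the underside of the cap. In mushroom-forming fungi they carry the hymenium, the layer of basidia in which the paired nuclei fuse, meiosis takes place and spores are formed. The skin of a cap is a layer of hyphae that covers the flesh and meets the outside air. The files name genes by number only and pair no number with a gene name, a product or a position, so no gene family is described, and the tissue labels could not be checked against marker genes.

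Total counts ran from 14.9 to 22.8 M (mega) in lamellae and from 13.5 to 19.6 M in skin. Across genes, the Spearman correlation between libraries was 0.943 to 0.979 within lamellae, 0.958 to 0.991 within skin and 0.832 to 0.876 between the tissues. Among 7916 genes with a mean of at least 10 CPM (counts of a gene per M of total counts, scaled between libraries by the trimmed mean of M-values, TMM), the median coefficient of variation was 22.3% in lamellae and 17.6% in skin. In bulk tissue, fewer cells that express a gene and less RNA of it per cell cannot be told apart.

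Lamellae differed from skin in 2055 of 10814 genes tested (19%), with 996 higher in lamellae (9.21%) and 1059 lower (9.79%). Calls required a difference of at least 2-fold and an adjusted p under 0.05 (edgeR's quasi-likelihood test, Benjamini-Hochberg adjustment over all genes tested). The median log2 fold change, lamellae minus skin, was 1.84 in the genes called higher and -1.78 in those called lower, against -0.02 over all genes tested. The 3 lamellae and the 3 skin libraries did not overlap in 976 of the 996 and in 1052 of the 1059. The calls rest on these same libraries, so these counts describe the called genes and are no further support. Over all genes tested, 45.4% did not overlap, with lamellae above skin in 21.5% and below it in 23.8%.

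**Figure D1:**
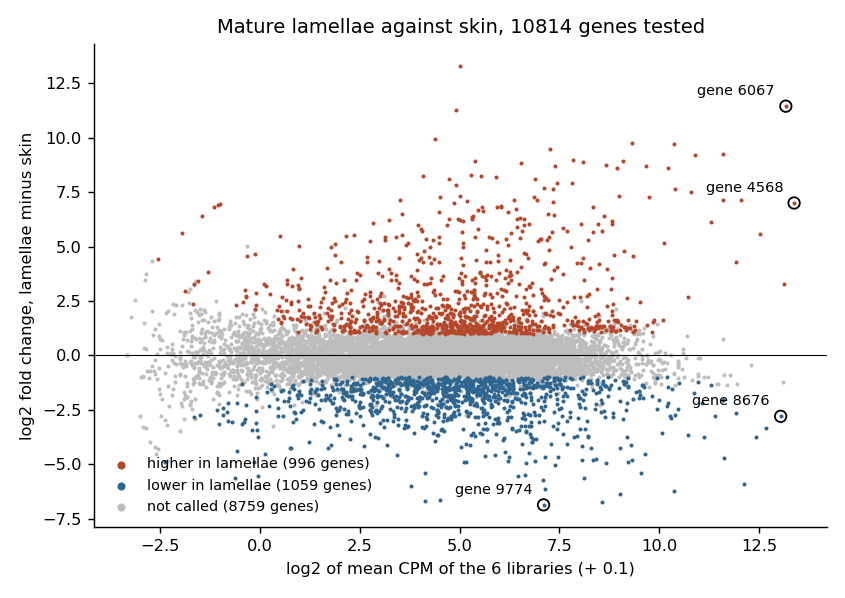
Log2 fold change of lamellae minus skin (vertical axis) against the log2 of the mean CPM of the 6 libraries plus 0.1 (horizontal axis), 1 point for each of 10814 genes. Red points are the 996 genes called higher in lamellae, blue points the 1059 called lower and grey points the genes not called, and circles mark the 4 genes described by number. The red points reach 13.31 and the blue points -6.87.

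The numbers of genes in both directions were close, but the large differences lay mostly on the side of the lamellae. At 4-fold or more, 455 called genes were higher and 421 lower in lamellae. At 8-fold or more there were 264 and 157, at 16-fold 178 and 59, at 32-fold 131 and 18, and at 64-fold 83 and 8. At 128-fold or more there were 45 higher and 0 lower, and 25 of the 45 were at least 256-fold higher. The largest log2 fold change was 13.31 among genes higher in lamellae and -6.87 among genes lower in lamellae. Leaving out any 1 of the 6 libraries left 174 to 189 genes at least 16-fold higher and 54 to 68 at least 16-fold lower.

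**Figure D2:**
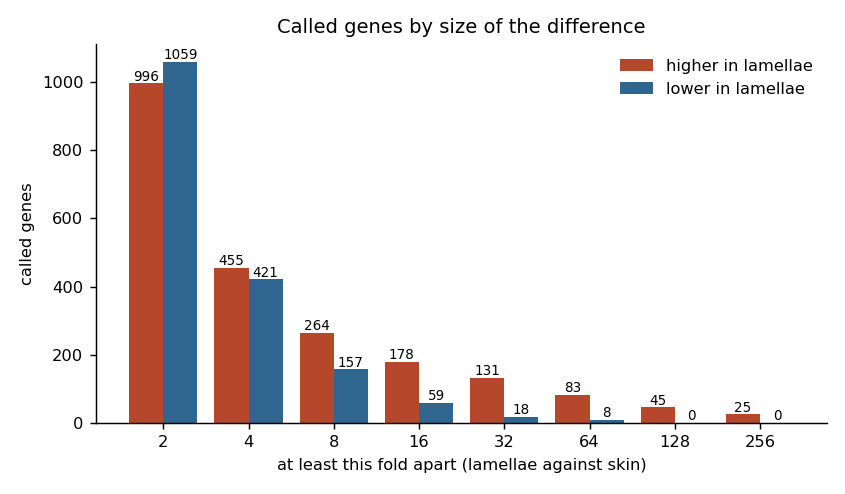
Number of called genes (vertical axis) that were at least a given fold apart (horizontal axis, cumulative), with red bars for genes higher in lamellae and blue bars for genes lower in lamellae. The bars are close at 2-fold (996 and 1059) and part with increasing fold, to 178 and 59 at 16-fold and 45 and 0 at 128-fold.

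The 178 genes at least 16-fold higher had a median of 120.1 CPM in lamellae and 1.60 CPM in skin. Of them, 87 reached 100 CPM in every lamellae library. The 59 genes at least 16-fold lower had a median of 5.04 CPM in lamellae and 193.5 CPM in skin, and 33 of them reached 100 CPM in every skin library.

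Gene 6067 had the largest increase among called genes with a mean of at least 10 counts in both tissues and no overlap between libraries. It stood at 13102, 24961 and 17207 CPM in lamellae replicates 1 to 3, against 8.58, 5.74 and 5.33 CPM in skin replicates 1 to 3. Every lamellae library lay above every skin library by more than 1000-fold. The log2 fold change was 11.46 ± 1.87 (SE; edgeR, Benjamini-Hochberg adjusted p = 4.67e-05, n = 3 and 3). This SE, here and for the other genes, is the size of the log2 fold change divided by the square root of edgeR's F statistic. It is not given by edgeR itself and is not a spread between libraries. Gene 6067 took on average 2.00% of all counts of a lamellae library. Its group means in the other tissues lay between 2.63 CPM in stage 1 primordia and 209.7 CPM in mature stipe, far below the lamellae. In mature cap it was uneven, at 215.8 CPM in replicate 1 and 8.11 and 3.08 CPM in replicates 2 and 3.

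Gene 4568 held the largest share of counts in lamellae, 2.33% on average, against 0.018% in skin. Its libraries stood at 20549, 12450 and 30335 CPM in lamellae and at 89.2, 243.6 and 160.7 CPM in skin. The tissues did not overlap, and the log2 fold change was 7.0 ± 1.15 (SE; edgeR, Benjamini-Hochberg adjusted p = 5.02e-05). Group means in the 9 other groups ran from 23.02 CPM in stage 1 primordia to 165.4 CPM in stage 3 cap. Skin, at 164.5 ± 77.3 CPM (SD, n = 3), was thus at the upper end of the tissues other than lamellae. Neither gene was called in any of 6 comparisons that use no lamellae or skin library, listed further on, with log2 fold changes from -2.54 to 1.58 for gene 6067 and from -1.05 to 1.33 for gene 4568. Per length, gene 4568 was the higher of the pair in lamellae, at a deposited log2 FPKM (fragments scaled by length and library depth) of 15.67, 14.95 and 16.24, against 12.67, 13.60 and 13.07 for gene 6067. On a scale described further on, the lengths the authors divided by came to 393 bases for gene 4568 and 2008 for gene 6067.

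Gene 9774 had the largest decrease by the same rule. It stood at 2.33, 3.89 and 0.840 CPM in lamellae and at 268.9, 235.9 and 311.7 CPM in skin, without overlap. The log2 fold change was -6.87 ± 0.76 (SE; edgeR, Benjamini-Hochberg adjusted p = 1.73e-07). The mature cap (412.8 ± 105.3 CPM) and the mature stipe (561.0 ± 50.2 CPM) were nearer to skin than to lamellae (SD, n = 3 each). Lamellae had the lowest mean of the 11 groups, and the next was stage 3 cap at 27.4 ± 13.5 CPM (SD, n = 3). The gene was lower in cap than in stipe in stage 3 primordia (log2 fold change -4.32 ± 0.67, SE; edgeR, Benjamini-Hochberg adjusted p = 0.000148) and in young bodies (-2.21 ± 0.61, SE; edgeR, Benjamini-Hochberg adjusted p = 0.0391). Stage 3 stipe stood at 185.9, 169.2 and 1281 CPM in replicates 1 to 3, all above the stage 3 caps (17.9 to 42.8 CPM). The size of the stage 3 difference thus leans on stipe replicate 3. Counts of gene 9774 were fractions in 18 of 32 libraries, so some of its reads may belong to another gene as well.

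Gene 8676 took 0.226% of counts in lamellae and 1.54% in skin on average, the largest share of any gene in skin. It stood at 948.8, 3757 and 1626 CPM in lamellae and at 16854, 7915 and 19413 CPM in skin. The nearest libraries were lamellae replicate 2 and skin replicate 2, and the tissues did not overlap. The log2 fold change was -2.80 ± 0.62 (SE, edgeR, Benjamini-Hochberg adjusted p = 0.00141). With a replicate term on the 6 libraries it was -2.95 with an adjusted p of 0.0536 in edgeR, so the gene was then not called. The gene was lowest in mycelium, at 26.9 ± 29.7 CPM, and rose by 9.06 ± 0.82 log2 units in stage 1 primordia against mycelium (SE; edgeR, Benjamini-Hochberg adjusted p = 2.41e-09), to 14300 ± 5467 CPM (SD, n = 3). It was also higher in mature than in young cap, by 2.24 ± 0.61, and in mature than in young stipe, by 1.77 ± 0.60 (log2 fold change ± SE; edgeR, Benjamini-Hochberg adjusted p = 0.00446 and 0.0197). The mean in lamellae, 2111 ± 1466 CPM, was close to that in stage 3 cap, 2697 ± 877 CPM (SD, n = 3 each). The mean was 14727 ± 6037 CPM in skin and higher in mature cap, at 18270 ± 9429 CPM. Mature stipe had the highest mean of the 11 groups, 33401 ± 2074 CPM (SD, n = 3 each).

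**Figure D3:**
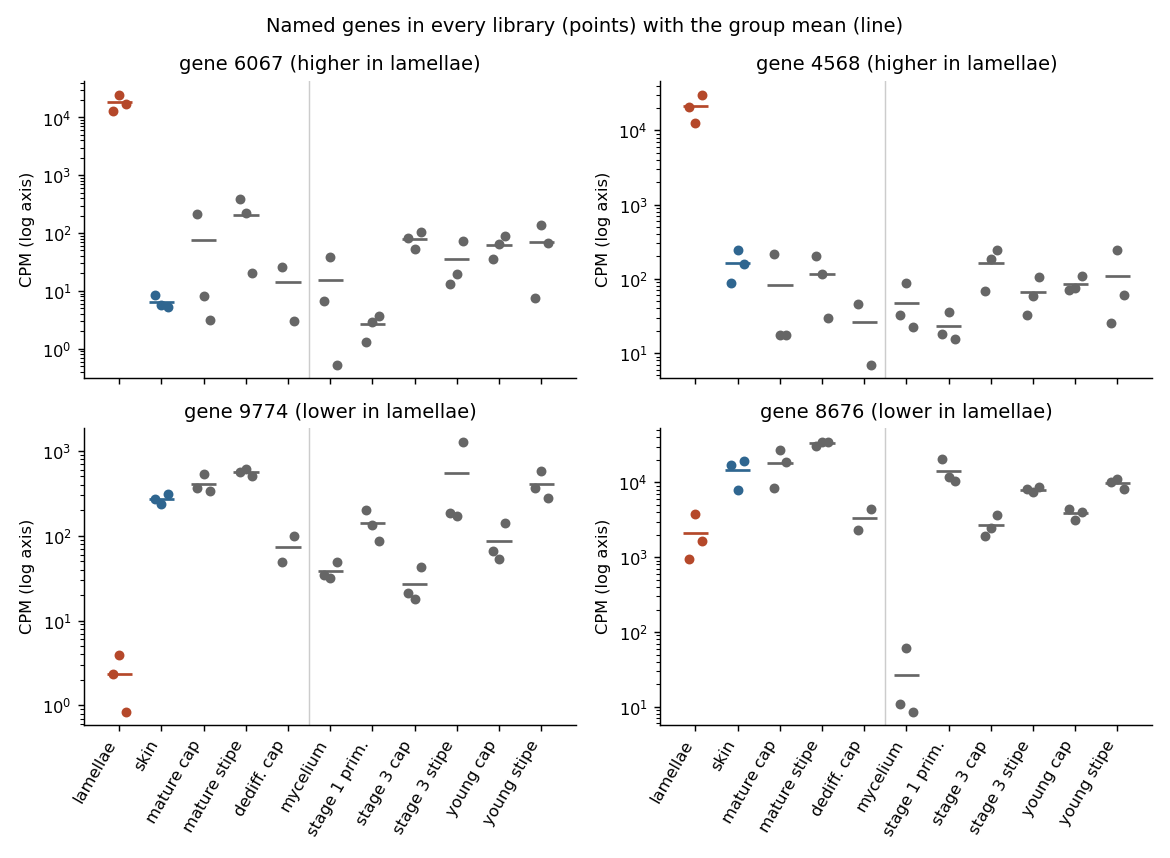
CPM (log axis) of genes 6067, 4568, 9774 and 8676 in every library of the 11 groups, with points for libraries, short lines for group means, lamellae in red and skin in blue, and a grey line between mature tissues and the other stages. Genes 6067 and 4568 reach at least 12450 CPM in every lamellae library and at most 387.0 CPM in any other library, gene 9774 is lowest in lamellae (at most 3.89 CPM), and gene 8676 is lower in lamellae than in skin and lowest in mycelium.

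The called genes carried a large part of the counts of both tissues. The 996 genes higher in lamellae held 27.2%, 26.6% and 29.5% of all counts in lamellae replicates 1 to 3, against 3.77%, 3.54% and 3.77% in skin. The 1059 genes lower in lamellae held 5.62%, 6.19% and 5.21% in lamellae, against 27.0%, 24.9% and 27.3% in skin. The 178 genes at least 16-fold higher held 14.1% to 16.9% of counts in lamellae and 0.173% to 0.207% in skin. The 59 genes at least 16-fold lower held 0.0941% to 0.131% in lamellae and 2.88% to 4.67% in skin. These genes were chosen on the same libraries, so the shares describe them and test nothing. They also show the level at which RNA of the most unequal genes of one tissue was found in libraries of the other. Whether it came from a mixing of tissues at dissection was not tested.

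The most abundant genes were in part shared. Ranked per length by mean FPKM, lamellae and skin shared 55 of their 100 highest genes. Of the 20 highest in lamellae 9 were called higher there, and of the 20 highest in skin 10 were called lower in lamellae. Ranked by CPM, which is a share of reads and not a level per length, they shared 46 of 100, and 15 and 12 of the 20 highest were called in those directions. The number of genes detected was alike, with a mean FPKM of at least 1 for 10109 genes in lamellae and 10045 in skin, of which 9887 were in both. Near absence was commoner in skin. Here 25 genes had at least 10 FPKM in every lamellae library and under 1 in every skin library, and 0 genes had the reverse. The reverse count was 4 without lamellae replicate 1, and 1 without lamellae replicate 2 or skin replicate 2.

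Genes higher in lamellae were commoner among genes with a low level over the series. When the genes tested were ranked by mean level over all 32 libraries and cut into 4 equal bins, the lowest bin held 345 genes higher and 221 lower in lamellae. The second bin held 298 and 320, the third 231 and 258, and the highest 122 and 260. Of the genes at least 16-fold apart, the lowest bin held 115 higher and 21 lower. In the other bins, in rising order of level, they numbered 44 and 12, 16 and 10, and 3 and 16. The mean level includes the lamellae and skin libraries themselves, and most of the 32 libraries are from other tissues. A gene high in lamellae alone therefore falls in a low bin. The genes at least 16-fold higher had a median of 6.89 log2 CPM in lamellae and 0.70 (skin) to 1.71 (stage 3 cap) in other groups. Their place in the bins is thus in part fixed by the choice of the genes.

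The mature cap, sampled as a separate tissue, was set against both surfaces, as a description of genes chosen on lamellae and skin. Its place was measured for each gene as the difference of cap minus skin divided by that of lamellae minus skin, on fitted log2 levels, so that 1 is the level of lamellae and 0 that of skin. In genes higher in lamellae the median place was -0.04 (quartiles -0.24 and 0.13), and 951 of 996 genes (95.5%) had the cap nearer to skin than to lamellae. In genes lower in lamellae the median was 0.05 (quartiles -0.30 and 0.54), and 783 of 1059 (73.9%) had the cap nearer to skin. Over all genes tested the share was 74.8%, so the second share was near the background and the first above it. With library size alone the median places were -0.15 in genes higher and 0.19 in genes lower in lamellae. The median log2 level of lamellae minus cap was 2.01 in genes higher in lamellae and -1.57 in genes lower in lamellae, and that of skin minus cap was 0.08 in both. These differences share the cap libraries.

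The largest differences in the 2 directions were unlike in this respect. Of the 178 genes at least 16-fold higher in lamellae, 98.9% had the cap nearer to skin, with medians of 5.75 for lamellae minus cap and -0.35 for skin minus cap on the log2 scale. Of the 59 genes at least 16-fold lower in lamellae, 37.3% had the cap nearer to skin, with medians of -1.16 for lamellae minus cap and 4.06 for skin minus cap. In 25 of these 59 the cap was below the lamellae as well.

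**Figure D4:**
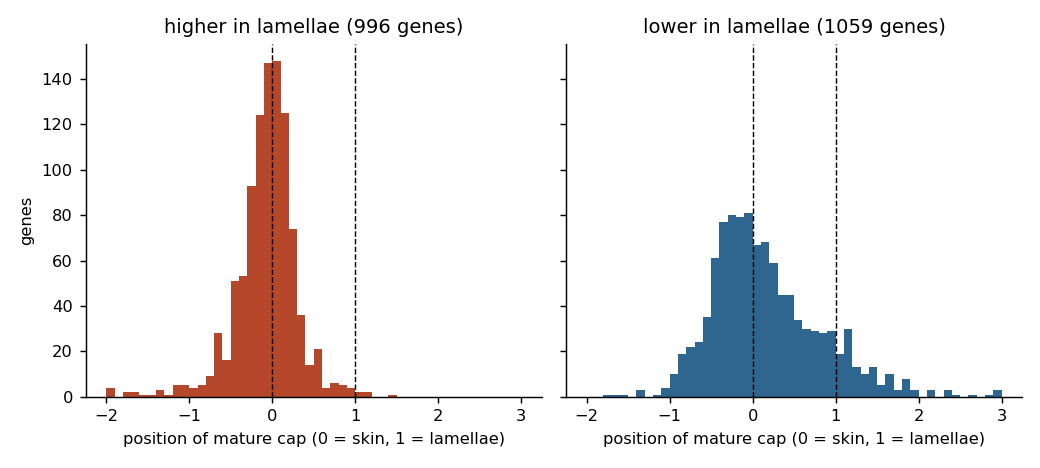
Number of genes (vertical axis) by the place of the mature cap between lamellae (1) and skin (0) on the fitted log2 scale (horizontal axis, values beyond -2 and 3 drawn at the ends), for genes higher (left, red) and lower (right, blue) in lamellae. The left panel centres near 0 (median -0.04), and the right panel has a tail to 1 and above (276 of 1059 genes over 0.5).

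Among pairs of the 5 mature tissues, lamellae against skin had fewer called genes than lamellae against mature cap (27.3% of genes tested), mature stipe (34.3%) or dedifferentiated cap (31.8%). Skin against mature cap had 4.4%, skin against mature stipe 9.34% and skin against dedifferentiated cap 28.5%. These pairs share libraries, and the counts were not tested against each other.

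Lamellae had the highest mean of all 11 groups in 582 of the 996 genes higher in lamellae (58.4%, against 9.21% of all genes tested) and in 168 of the 178 at least 16-fold higher (94.4%). Skin had the highest mean in 172 of the 1059 genes lower in lamellae (16.2%, against 3.13% of all genes tested) and in 31 of the 59 at least 16-fold lower (52.5%). These lamellae and skin shares are in part fixed by the choice of the genes on the same libraries and describe them only. Of the 1059, mature stipe had the highest mean in 238 (22.5%, against 11.4% of all genes tested) and mature cap in 108 (10.2%, against 7.39%). The dedifferentiated cap (198 genes, 18.7%, against 17.3%) and mycelium (196 genes, 18.5%, against 20.6%) were near or below the share over all genes. Among the 9 groups other than lamellae and skin, stage 3 cap was the highest in 309 of the 996 genes higher in lamellae (31.0%, against 14.02% of all genes tested) and in 56 of the 178 (31.5%). For genes lower in lamellae, mature stipe was the highest of the 9 in 264 (24.9%, against 13.4% of all genes tested).

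The median level of the genes higher in lamellae was 5.63 log2 CPM in lamellae and 3.29 in skin. In the 9 other groups it lay between 3.21 in mature cap and 3.98 in stage 3 cap. The median level of the genes lower in lamellae was 3.53 in lamellae and 5.51 in skin. In mature cap and mature stipe it was 4.996 and 5.39, near skin. In dedifferentiated cap and mycelium it was 4.94 and 4.90, close to mature cap, and in stage 1 primordia 4.17. In stage 3 cap and stipe it was 3.89 and 3.86, and in young cap and stipe 4.31 and 4.11, nearer to lamellae. Over all genes tested the median ran from 4.46 in stage 3 stipe to 4.80 in dedifferentiated cap.

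**Figure D5:**
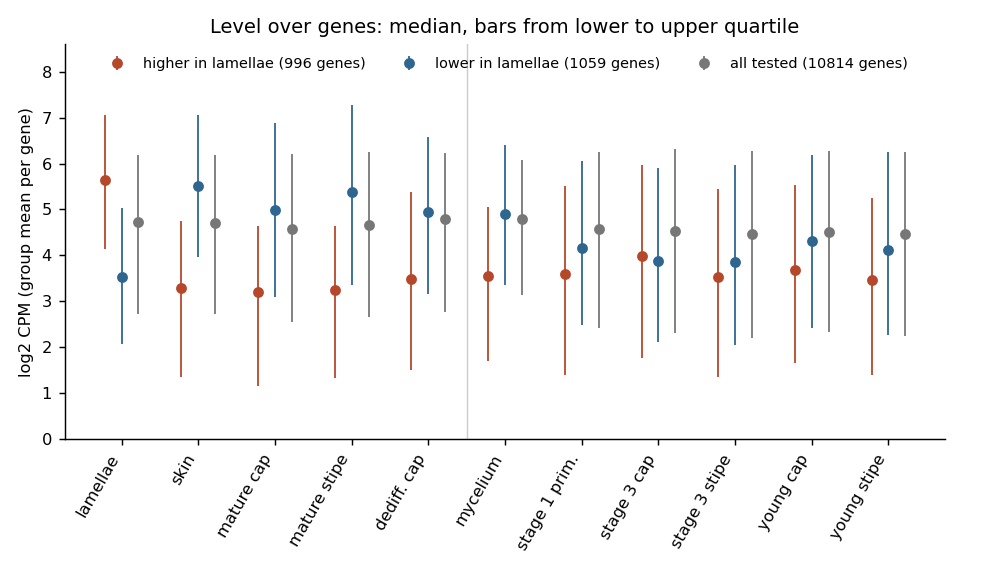
Median over genes of the mean log2 CPM in each of the 11 groups, with bars from the lower to the upper quartile over genes, for the genes higher in lamellae (red), the genes lower in lamellae (blue) and all genes tested (grey). The red points stand at 5.63 in lamellae and at 3.21 to 3.98 elsewhere, and the blue points are low in lamellae (3.53) and in stage 3 caps and stipes (3.89 and 3.86) and high in skin (5.51) and mature stipe (5.39).

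The same genes were followed in 6 comparisons that use neither lamellae nor skin libraries, with the same test and thresholds. In mature against young cap, 465 of the 1059 genes lower in lamellae rose (43.9%) and 152 fell (14.4%), where 19.0% of all genes tested rose and 16.9% fell. In mature against young stipe, 487 of them rose (46.0%) and 71 fell (6.70%), where 20.8% of all genes tested rose and 13.4% fell. Their median log2 fold change was 0.89 in cap and 0.95 in stipe, against 0.03 and 0.10 over all genes tested. The genes called higher in mature than in young cap included 22.6% that were lower in lamellae than in skin, against 9.79% of all genes tested.

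Among the 996 genes higher in lamellae, more fell than rose. In mature against young cap 80 rose (8.03%) and 352 fell (35.3%), and in mature against young stipe 109 rose (10.9%) and 267 fell (26.8%), beside the same shares of all genes. Their median log2 fold change was -0.71 in cap and -0.39 in stipe. Scaling by library size alone shifted the median over all genes by -0.27 in cap and -0.36 in stipe. In cap 13.8% of all genes then rose and 23.3% fell, and in stipe 14.7% and 21.6%. With that scaling 393 of the 1059 rose and 183 fell in cap, and 402 rose and 110 fell in stipe. Of the 996, 55 rose and 440 fell in cap, and 69 rose and 360 fell in stipe.

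The genes were also followed between cap and stipe of the same stage. In stage 3 primordia 96 of the 1059 were higher in cap (9.07%) and 124 lower (11.7%), where 2.77% and 2.69% of all genes tested were. In young bodies 101 were higher in cap (9.54%) and 69 lower (6.52%), where 1.94% and 1.38% of all genes were. Scaled by library size alone, 115 of them were higher and 95 lower in stage 3 cap, so the direction with more genes in stage 3 depended on the scaling. With TMM they made up 48.1% of the genes higher in young cap and 46.3% of those lower in it, against 9.79% of all genes tested. Of the 996 genes higher in lamellae, 51 were higher in stage 3 cap than in stage 3 stipe (5.12%) and 10 lower (1.0%). In young bodies 27 were higher in cap (2.71%) and 8 lower (0.803%). Scaling by library size alone shifted the median over all genes by 0.16 in stage 3. Then 4.06% of all genes were higher in stage 3 cap and 1.75% lower, and 74 of the 996 were higher and 4 lower. In mature bodies 9 of the 1059 were higher in cap (0.85%) and 42 lower (3.97%), where 0.222% and 1.46% of all genes were. Of the 996, 15 were lower in mature cap than in mature stipe (1.51%), which is near the background. Without lamellae replicate 2 or skin replicate 1, 2 or 3, the count of 10 in stage 3 became 4 or 5 and that of 8 in young bodies 3 to 5, and without skin replicate 1 the count of 15 became 9.

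Against mycelium, stage 1 primordia had 221 of the 1059 genes lower in lamellae at a higher level (20.9%) and 433 at a lower level (40.9%), where 19.3% of all genes tested were higher and 27.9% lower. Of the 996 genes higher in lamellae, 270 were higher (27.1%) and 216 lower (21.7%). With library size alone the median over all genes shifted by 0.19 in this comparison, and 23.3% of all genes were higher and 24.6% lower. Of the members, 250 of the 1059 were higher and 395 lower, and 310 of the 996 were higher and 182 lower.

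The length of the called genes differed little from that of other genes. The deposited counts and log2 FPKM values give the length by which the authors divided, up to 1 common scale. That scale (0.9654) was chosen to bring short genes with high counts nearest to multiples of 3. Of 357 genes under 900 bases with at least 1000 counts in every library, 98.0% then lay within 0.1 bases of a multiple of 3. The length is read as coding length, a reading that rests in part on the choice of scale. The median coding length was 984 bases in 983 genes higher in lamellae, 1029 in 1059 genes lower in lamellae and 972 in 10665 genes tested that had a value. The 59 genes at least 16-fold lower had a median of 1131 bases, with quartiles of 811 and 1454. Fractional counts in at least 1 library were found in 19.98% of the genes higher in lamellae, 24.9% of the genes lower in lamellae and 24.4% of all genes tested.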

How the data were processed

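Poly(A) RNA was made into stranded libraries and read from 2 ends of 150 bases, per the labels' protocols. The submitters' processing notes name STAR, featureCounts, R 3.0.2, edgeR 3.4.2 and limma 3.18.13, with no role given. The name of the FPKM table carries PleosPC15, and no source used here gives a build version. The authors deposited expected counts for 12329 genes per library, of which 95.2% of the values above 0 were whole within a tolerance of 1e-06, and 1 table of log2 FPKM values for 10755 genes, down to -8.87. Counts were rounded. None of the gene numbers matched the 11849 entries of the reference gene list (0 matches), which is for another strain's assembly, PC9.

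Genes were kept by filterByExpr (10814), scaled by TMM and fitted with edgeR 4.0.16 in R 4.3.3, with a mean for each of 11 groups over all 32 libraries, by robust quasi-likelihood with 21 residual degrees of freedom and a common biological coefficient of variation of 0.374. Counts of 10814 genes were simulated for lamellae against skin. The test recovered 1 of 50 genes changed 2-fold and 23 of 50 at 3-fold. At 4-fold it recovered 32 of 50 and at 8-fold 47 of 50. Far fewer genes differed there than were called in the data, which makes the adjusted p stricter. The recovered shares therefore do not say how many differences of a given size were missed in the data. Adjusted p-values are Benjamini-Hochberg over all genes tested. No pair of replicates within lamellae or within skin looked like 1 library deposited again (chi-square per degree of freedom at least 32.0). Each library was counted as labelled.

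Genes are named by a rule: in each direction the called gene with the largest fold change, and the called gene at least 4-fold apart with the most CPM in the higher tissue, both with at least 10 mean counts in both tissues and no overlap between libraries. The comparison and the lists were chosen with earlier results of these data known. Alternatives used DESeq2 1.42.0, limma 3.58.1, other scalings, filters, thresholds and sample sets, a replicate term and leaving out libraries.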

Additional observations from a re-analysis of the deposited data

How the results depend on the processing

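The count of 2055 called genes became 876 at 4-fold (455 higher in lamellae, 421 lower) and 831 with edgeR's test against a 2-fold change (436 and 395), which are stricter rules. All other alternatives run for this comparison kept it within 1.5 times, among them the DESeq2 test (1120 and 1095), limma on log2(FPKM + 1) (893 and 1006) and library size alone (1048 and 1020). Leaving out each lamellae or skin library gave 1609 to 1980 genes. Which direction held more genes changed with the setting. The genes at least 16-fold apart stayed more numerous on the lamellae side under every setting run, from 134 against 41 with limma on log2(FPKM + 1) to 189 against 65 without skin replicate 2; these counts, and the limits in CPM below, were chosen after seeing the data.

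The replicate block on the 6 libraries gave 1820 genes (890 higher, 930 lower), and gene 8676 then had an adjusted p of 0.0536 in edgeR with a log2 fold change of -2.95. Over its alternatives that gene's adjusted p ran from 5e-06 to 0.0536. The other named genes passed under every alternative. The titles number the replicates and do not say whether equal numbers share fruiting bodies. Same-numbered libraries had correlations of -0.389, -0.669 and 0.00522 between their deviations from the tissue means. With 3 libraries a tissue these values cannot settle whether the samples were paired.

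With limits of 2 and 20 FPKM, 40 genes were on in lamellae and off in skin and 2 the reverse; the reverse count ran from 0 to 4 when a library was left out, and limits of 1 and 10 CPM gave 28 and 0. With library size alone and the lists called anew, 77 genes higher in lamellae were higher and 4 lower in stage 3 cap than stipe, 53 rose from young to mature cap, and 107 genes lower in lamellae fell from young to mature stipe. The place of the cap became -0.15 and 0.19. Leaving out a library moved small counts of genes higher in lamellae: 9 to 13 lower in mature cap than stipe, 3 to 7 in young and 4 to 8 in stage 3 cap. Leaving out a mature cap library moved the place of the cap to between -0.0747 and -0.0329 in genes higher in lamellae and to between -0.0136 and 0.103 in genes lower in lamellae. On simulated counts 1 of 50 genes changed 2-fold was recovered, in a setting where far fewer genes differed than were called in the data.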

Other observations

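Deviations of lamellae and skin libraries from their tissue means were correlated in pairs that did not follow their numbers. The deviations of lamellae replicate 1 from the lamellae mean correlated with those of skin replicate 2 from the skin mean (0.70 across genes), and those of lamellae replicate 2 with skin replicates 1 (0.52) and 3 (0.45). The labels give no batch that these libraries share. Deviations from the mean of 3 libraries cancel out in each gene, so positive correlations come with negative ones. The lowest was -0.67, between lamellae replicate 2 and skin replicate 2. Genes are not independent replicates, so the values are descriptive.

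Mature cap replicate 1 held more of the genes named for their level in lamellae than the other mature caps, with 212.8 CPM of gene 4568 against 17.4 and 17.7 CPM. The 178 genes at least 16-fold higher in lamellae than in skin held 0.278% of its counts, against 0.154% and 0.171% in cap replicates 2 and 3. Of the groups other than lamellae, stage 3 cap held the most, at 0.375% to 0.643%.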
